A study of Drosophila melanogaster with 2 samples.

Results

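The 10 genes described here, Hrs, Stam, TSG101, Vps28, Vps25, shrb, Vps4, ALiX, mop and lap, encode core parts of the ESCRT machinery, its Bro1-domain partners and a clathrin adaptor. They are 10 of 13986 protein-coding genes in the Ensembl annotation. The set was chosen from peak values: Hrs, ALiX and lap lie at peaks among the 15 strongest promoter peaks of the experiment, and the others were added as genes of the same pathway with the results known. Signals, ranks and counts of peaks at these genes are therefore a description and were not tested. The data are chromatin immunoprecipitation (ChIP-seq) peak lists from whole Drosophila melanogaster embryos aged 0 to 16 hours, with both sexes pooled. The line stably carries CG9437 fused at its C terminus to GFP, and the labels tie the insertion to hng1, which encodes a MADF-BESS DNA-binding protein. The 2 biological replicates form 1 group, there is no second genotype or condition, and what drives the fusion gene is not stated in the labels. Signal from whole embryos cannot be assigned to a cell type. One free-text label calls both samples input controls, whereas their assay and antibody entries and the file descriptions name a transcription factor ChIP, and the lists are treated as such here.

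ESCRT complexes sort ubiquitinated membrane proteins into vesicles that bud into endosomes, and they also act in cytokinesis and in closing membranes. ESCRT-0 gathers the cargo, ESCRT-I and ESCRT-II follow, ESCRT-III filaments cut the vesicle neck, and the ATPase Vps4 takes the filaments apart. ALiX and mop carry Bro1 domains that bind ESCRT-III, and in Drosophila the pathway is known for turning off receptor signalling, with loss of Vps25 or TSG101 causing tissue overgrowth. lap encodes the fly AP180/CALM protein, which links clathrin to membranes and helps retrieve synaptic vesicles.

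The sequences around the peak summits are shown first, because the strongest peaks differed from the weaker ones in a short word, ACGTAA, that is frequent at the strongest peaks of this experiment. Each window reaches 50 bp to each side of the pooled summit in dm6 and is written 5′ to 3′ on the strand of the named gene. Capitals mark ACGTAA or its reverse complement TTACGT.
Hrs (chr2L:2739947-2740047, plus strand): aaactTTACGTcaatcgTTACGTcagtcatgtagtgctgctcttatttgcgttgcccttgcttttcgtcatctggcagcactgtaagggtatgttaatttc
ALiX (chr3R:27700292-27700392, minus strand): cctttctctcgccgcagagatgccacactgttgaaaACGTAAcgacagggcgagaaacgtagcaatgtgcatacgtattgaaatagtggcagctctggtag
lap (chr3R:7186830-7186930, plus strand): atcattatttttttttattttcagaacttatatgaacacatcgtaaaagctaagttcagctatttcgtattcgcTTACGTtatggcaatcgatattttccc
Stam (chr2L:10858264-10858364, plus strand): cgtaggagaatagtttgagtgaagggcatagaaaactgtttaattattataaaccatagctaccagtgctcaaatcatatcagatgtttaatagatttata
mop (chr3L:14776360-14776460, minus strand): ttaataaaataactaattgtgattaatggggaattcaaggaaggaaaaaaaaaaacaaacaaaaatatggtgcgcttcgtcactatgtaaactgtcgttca
TSG101 (chr3L:16842081-16842181, plus strand): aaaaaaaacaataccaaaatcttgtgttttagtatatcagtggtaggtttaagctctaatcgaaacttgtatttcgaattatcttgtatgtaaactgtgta
Vps4 (chrX:17907573-17907673, plus strand): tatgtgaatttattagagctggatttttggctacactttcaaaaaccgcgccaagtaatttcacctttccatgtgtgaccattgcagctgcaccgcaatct
The word is present in the first 3 windows and absent from the last 4. It is also absent from the window of shrb, which is not shown.

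ACGTAA was found at Hrs, ALiX and lap and at none of the other 5 genes with a promoter candidate. Hrs held 2 copies, centred 42.5 and 30.5 bp upstream of the summit along the gene's strand, and ALiX and lap held 1 each, centred 11.5 bp upstream and 26.5 bp downstream. Over all final promoter summits, 364 of 3323 windows of this width held the word on either strand (11.0%; exact Clopper-Pearson 95% interval 9.91 to 12.1), and 77 windows (2.32%) held it at least 2 times. Among promoter candidates that did not reach the final list, 267 of 6259 held it (4.27%). The word is common among very strong peaks: of the other 12 peaks among the 15 strongest at promoters, 7 held it. Promoter ranks, such as these 15, count only the 3180 final peaks at a protein-coding TSS, fewer than the 3323 summits above. Since it was found in these same peaks, its presence at Hrs, ALiX and lap is no independent observation. With 25 bp to each side of the summit 1 gene, ALiX, held it, and with 100 bp the count was again 3.

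The longest words shared by these windows were compared on both strands. ALiX and Hrs shared the 9-base word ACGTAACGA, which 16 of 3323 final promoter windows held (0.481%). The longest words common to lap and ALiX had 7 bases, AACGTAA (5.57% of final promoter windows) and CTATTTC (1.53%). lap and Hrs shared words of 6 bases at most. Other words were searched on both strands of the same windows. ATCGAT, the core of the element bound by Dref, was found at lap alone (9.12% of final promoter windows), TATAAA at Stam alone (21.0%) and GATAA at TSG101 alone (24.7%). Within 100 bp of the summit TATAAA was found at 5 of the 8, Hrs, Stam, TSG101, mop and lap, beside 37.2% of final promoter windows of that width. TSG101, shrb and Vps4 have candidates outside the final list. Over all such promoter candidates, 25.8% held TATAAA within 100 bp and 21.6% held GATAA within 50 bp. The full element TATCGATA (3.40%) and the E-box CACGTG (0.933%) were at none of the 8 within 50 bp. ATCGAT lies within TATCGATA. G+C content ran from 27.7% at TSG101 to 49.5% at ALiX, with 29.7% at lap and 42.6% at Hrs, against a median of 33.7% over final promoter windows (quartiles 26.7 and 42.6), so the 3 windows with the word lie on both sides of the median.

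Hrs, ALiX and lap had peaks far above those of the other 7 genes. The authors' signal at the strongest promoter candidate of the pooled replicates was 17884 for lap, 14578 for ALiX and 13851 for Hrs, and the next gene, Stam, had 258, 53.8 times less than Hrs. A promoter candidate is a region with its summit at most 500 bp from any transcription start site (TSS) annotated for the gene. The authors describe the pooled list of 30000 candidates as peaks and background. A candidate outside the final list may therefore be background. A final peak had a summit there for 5 of the 10 genes (Hrs, Stam, ALiX, mop and lap), beside 3511 of 13986 protein-coding genes (25.1%). A pooled candidate, final or not, lay there for 8 of the 10, beside 7055 protein-coding genes (50.4%), and of those 7055 genes 49.8% had a final peak. These shares are given for scale, since the genes were chosen with their peaks known. The median signal of the 5 final genes was 13851, against 310 over all protein-coding genes with a final promoter peak. Hrs, ALiX and lap were chosen for strong peaks and are most of these 5, so the choice fixed that this median was high. The remaining final genes, Stam (258) and mop (156), lay below 310. The median of the 8 genes with a candidate was 207, against 147 over all such genes. Without Hrs, ALiX and lap, the other 5 ran from 68.1 to 258, with TSG101 (126) in the middle.

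**Figure D1:**
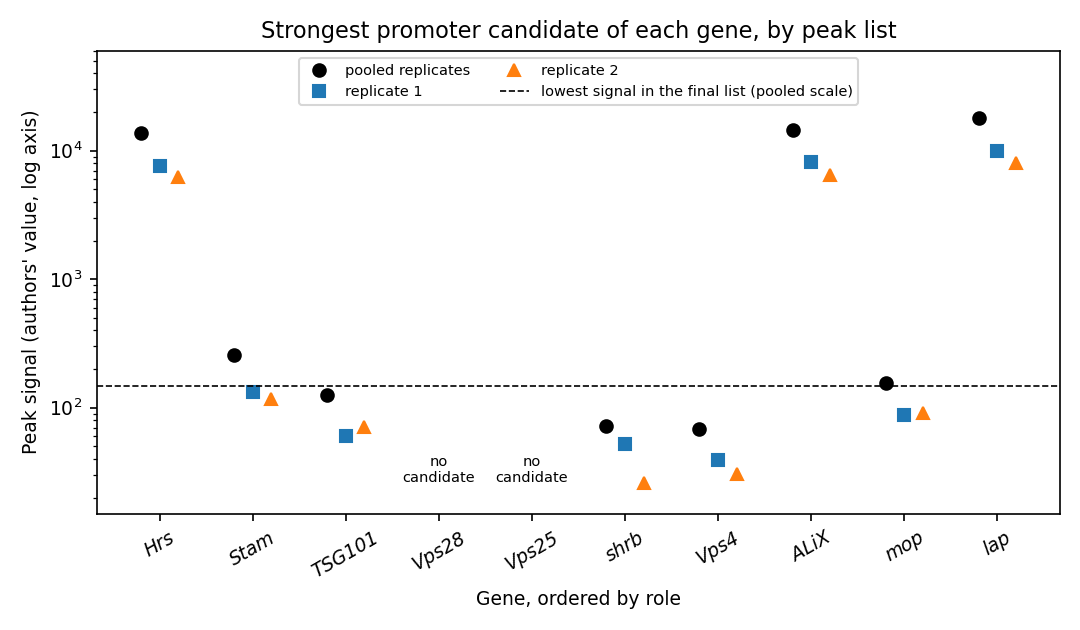
Signal of the strongest promoter candidate of each gene (y axis, log scale, the authors' peak value) in the pooled list (circles), replicate 1 (squares) and replicate 2 (triangles). Hrs, ALiX and lap reach at least 6236 in every list, the other 5 genes with a candidate stay below 258, and the dashed line is the lowest final signal, 148.

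Hrs and Stam form ESCRT-0, which binds ubiquitinated cargo and recruits clathrin, and both had a final peak. At Hrs (FBgn0031450) the peak spanned chr2L:2739502-2740533 and the summit, at 2739997, lay 11 bp inside the 5′ untranslated region of the first of 3 annotated TSSs. Its signal was 7668 in replicate 1 and 6236 in replicate 2, at ranks 13 and 17 of 30000, and the replicate summits were 1 and 0 bp from the pooled one. No other gene has a TSS within 500 bp of this summit. Hrs is thus the member of the 3 whose strong peak is not shared with a neighbour. Stam (FBgn0027363) had a summit at chr2L:10858314, 222 bp upstream of its only TSS, with 133 in replicate 1 and 117 in replicate 2 at ranks 3310 and 3317. The kinase gene aurB starts 442 bp away on the other strand, and the summit lies 220 bp upstream of the aurB TSS, in the middle of the interval. A weaker candidate (52.2, rank 20138, not final) lay 23 bp upstream of the Stam TSS.

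Neither ESCRT-I gene in the set had a final peak. TSG101 (FBgn0036666), whose product recognises ubiquitin and viral and cellular late-domain motifs, had a candidate of 126 at rank 7336, with a summit at chr3L:16842131, 163 bp upstream of the TSS. It reached 60.4 in replicate 1 and 70.5 in replicate 2, at ranks 8273 and 6593. The pooled value lies below the lowest final signal of 148. A second candidate (73.6) lay 101 bp downstream, in the 5′ untranslated region. Vps28 (FBgn0021814), a small subunit of the same complex, had no candidate within 500 bp of its TSS in any list. Its nearest pooled summit (371, rank 1858) lay 2322 bp upstream, inside the gene slv.

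Vps25, shrb and Vps4, which act at the later steps, had no final promoter peak either. Vps25 (FBgn0022027), an ESCRT-II subunit, had no candidate within 500 bp in any list, and the nearest pooled summit (57.5, rank 17868) was 2580 bp downstream in Gle1. shrb (FBgn0086656), the fly Snf7 or CHMP4 subunit that forms most of the ESCRT-III filament, had a candidate of 72.3 at rank 13590. Its replicate values of 52.3 and 26.0 were 2.01 times apart, at ranks 9767 and 22463, and its replicate summits were 96 bp to one side and 28 bp to the other side of the pooled one. The splicing factor gene Prp38 starts 42 bp away on the other strand and the summit lies inside Prp38. Vps4 (FBgn0283469) had a candidate of 68.1 at rank 14630, with 39.5 and 30.6 in replicates 1 and 2, and CG7772 starts 431 bp away on the other strand. A stronger final peak (480, rank 1280) lay 67 bp past the 3′ end of Vps4, and its summit was 298 bp upstream of the TSS of CG6847. Promoter values for these 3 genes were thus low or missing in both replicates.

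ALiX and mop encode the Bro1-domain proteins, and both had a final peak, of very different height. ALiX (FBgn0086346) had 8187 in replicate 1 and 6481 in replicate 2, at ranks 10 and 14, and the peak spanned chr3R:27699530-27700924. The summit, at 27700342, lay 232 bp upstream of the ALiX TSS and 19 bp upstream of the nearest TSS of btz. btz encodes an exon junction complex protein and starts 251 bp away on the other strand. The ALiX peak is therefore nearer to btz, and the lists assign it to neither gene. mop (FBgn0036448), the fly HD-PTP gene, had 156 at chr3L:14776410, 281 bp upstream of its TSS, and 351 of 6091 final peaks were lower. Its replicates placed the strongest promoter summit elsewhere, 177 bp upstream in replicate 1 (88.2) and 118 bp upstream in replicate 2 (91.3). Replicate 1 had no summit within 100 bp of the pooled one, so mop was the only one of the 8 genes without a matching summit in both replicates. Over all final peaks, 5603 of 6091 were matched in both. No other gene shares the mop summit.

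lap (FBgn0086372) had the highest signal of the set, at rank 5 of the final list. The replicates gave 9923 at rank 4 and 8086 at rank 7, the peak spanned chr3R:7186243-7187420, and the summit at 7186880 lay 114 bp upstream of the only lap TSS. CG10055 starts 321 bp away on the other strand, and the summit lies 207 bp upstream of it, so this peak too is between divergent genes. Within lap, final peaks of 196 and 151 lay in an intron, 1162 and 1371 bp downstream of the TSS, and a weak candidate of 43.9 followed at 1578 bp. These are the only final peaks inside the body of any of the 10 genes beyond the promoter window.

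**Figure D2:**
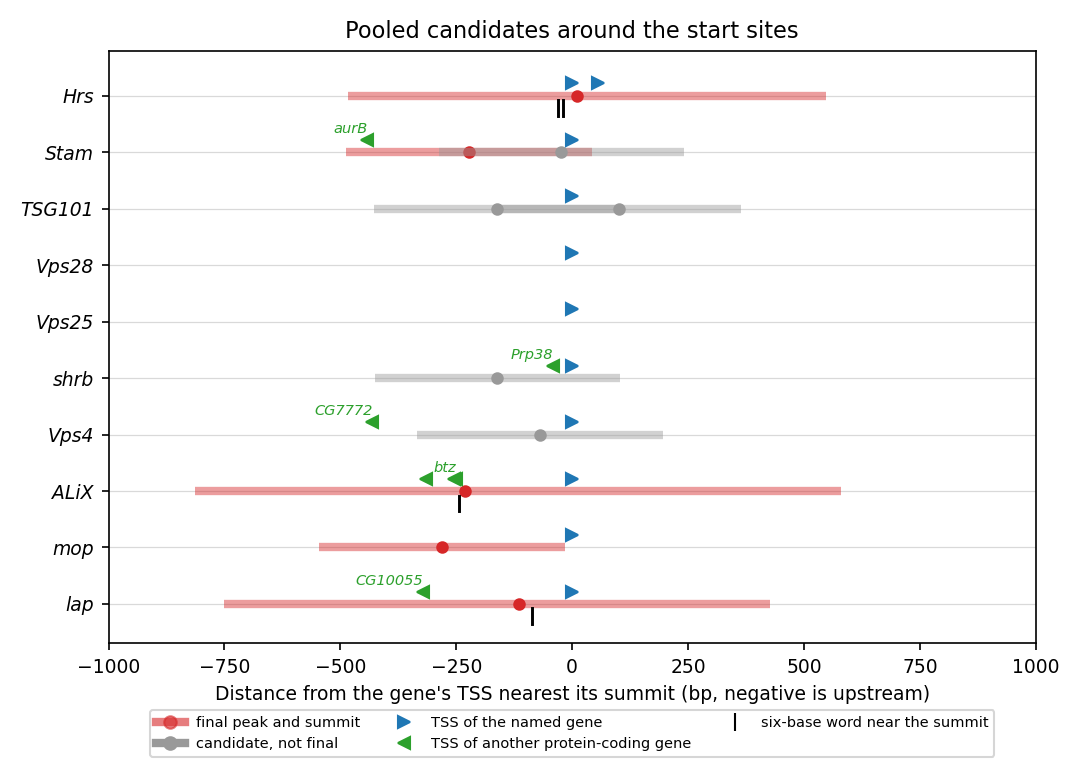
Pooled candidate regions (bars) and summits (circles) within 1000 bp of each gene's TSS, final in red and others in grey, with TSSs as triangles and ACGTAA within 100 bp of the strongest summit as black ticks (x axis, bp from the TSS nearest the summit). Ticks are seen at Hrs, ALiX and lap, partner genes start on the other strand at Stam, shrb, Vps4, ALiX and lap, and Vps28 and Vps25 have no region.

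Of the 8 genes with a candidate, 5 shared its summit with a head-to-head neighbour within 500 bp, and of the 5 with a final peak 3 did (Stam, ALiX and lap). Over all final peaks at a protein-coding TSS, 1246 of 3180 (39.2%) lay within that distance of 2 or more protein-coding genes, in any orientation. With every summit given to the closest TSS alone, 3 of the 10 genes kept a final peak (Hrs, mop and lap), beside 19.1% of protein-coding genes. ALiX then lost its peak to btz and Stam to aurB, by 2 bp in distance in the case of Stam (220 against 222). At all 8 candidates except that of Hrs the summit lay upstream of the member's TSS. The shares of all promoter candidates that lie upstream or are shared are not given here. Neither count over the 8 candidates is therefore read as particular to these genes.

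The 3 strong peaks were also broad, and their ratios between replicates were close to each other. They spanned 1032 bp (Hrs), 1178 bp (lap) and 1395 bp (ALiX) in the pooled list, and 109 of 6091 final peaks (1.79%) were at least 1032 bp wide. The other 5 candidates all had the width of 530 bp that 65.4% of final peaks share. Widths were not compared with those of other peaks of like signal. The strong peak at lsn, described below, spanned 1246 bp, so breadth is not particular to these 3. Replicate 1 over replicate 2 was 1.23 for Hrs, 1.26 for ALiX and 1.23 for lap, with each list on its own scale. Over 5603 final peaks matched in both replicates the median ratio was 1.17 (quartiles 0.933 and 1.45), and over 197 matched of the 200 strongest it was 1.03 (quartiles 0.826 and 1.19). The ratios of Hrs, ALiX and lap thus lie between the quartiles of all matched peaks and above the upper quartile of the strongest ones. Read depth is unknown, so the ratio cannot be corrected for it, and 2 replicates give no error for a single peak.

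In order of signal, lap lay between the peak at TBC1D23 and Pino (18286) and that at qless and mRpL32 (17441), as rank 5 among promoter peaks. ALiX and btz, at rank 11, lay between dup and SRPK (15857) and bon and Pus1 (14456). Hrs, at rank 13, lay between bon and pcs (13391). These neighbours are the peaks nearest in signal rank and nothing further is implied by that. The limit of 15 peaks used in choosing the set fell between 13360, at CG33155, mRpL53 and AGO1, and 12828 at Gdi. Counted over genes, 8 of the 7055 that had a candidate reached at least the signal of lap, 18 at or above that of ALiX and 21 at or above that of Hrs. The corresponding numbers were 2158 for Stam, 3383 for mop, 3918 for TSG101, 5364 for shrb and 5521 for Vps4.

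**Figure D3:**
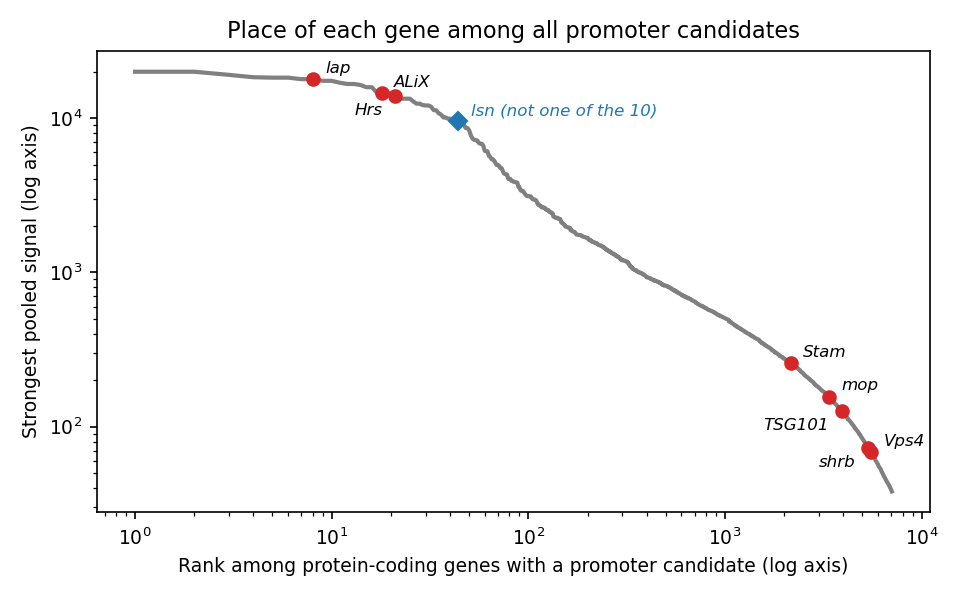
Strongest pooled signal of 7055 protein-coding genes with a promoter candidate (y axis, log scale) against the number of genes at or above that signal (x axis, log scale). Circles mark the 8 genes with a candidate and the diamond lsn, which is not one of the 10: lap, ALiX, Hrs and lsn lie at 8, 18, 21 and 44, the other 5 genes at 2158 and beyond.

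Among ESCRT genes outside the set, lsn had the strongest promoter peak. lsn (FBgn0260940), the fly Vps22 gene, encodes the ESCRT-II partner of Vps25 and Vps36, and its signal was 9521 at rank 33 of the final list. Replicate 1 gave 4569 at rank 40 and replicate 2 gave 5047 at rank 24. The summit at chr3R:21865157 lay 11 bp upstream of the TSS and no other protein-coding gene shared it. Its window is shown because it also held 2 copies of the word, centred 15.5 and 30.5 bp downstream of the summit.
lsn (chr3R:21865107-21865207, plus strand): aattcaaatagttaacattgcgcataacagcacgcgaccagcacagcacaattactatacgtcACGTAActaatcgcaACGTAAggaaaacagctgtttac
By this signal lsn came next after lap, ALiX and Hrs among the ESCRT, Bro1 and adaptor genes examined.

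Of the 14 other ESCRT and associated genes found in the annotation, 7 had a final promoter peak, 1 had a weaker candidate and 6 had none. After lsn, the ESCRT-III gene CHMP2B had 1417 (rank 244) and l(2)gd1, a C2-domain partner of shrb, had 857 (rank 518). Both summits were shared, with Tcs5 and Reps. Arranged by complex, and with the set's own members included, final peaks lay at both ESCRT-0 genes, at 0 of 4 ESCRT-I genes, and at lsn and Vps36 of 3 ESCRT-II genes. They lay at 4 of 8 ESCRT-III genes (Vps2, Vps24, CHMP2B and Vps60), at neither Vps4 nor its cofactor gene Vta1, and at both Bro1-domain genes. The final summits at Vps36, Vps2, Vps24 and Vps60 were each shared with another protein-coding gene, like those at CHMP2B, Stam and ALiX. Those at Hrs, mop and lsn were not shared. In all, 10 of these 21 genes had a final peak, beside the 25.1% of protein-coding genes. Hrs and ALiX were chosen for their strong peaks, and the grouping was made after the values were seen. The count is thus a description and was not tested. Signals differed between subunits within ESCRT-0 and within ESCRT-II. In ESCRT-0 Hrs, which was chosen for its strong peak, had 13851 and Stam 258. In ESCRT-II lsn had 9521, Vps36 had 218 and Vps25 had no candidate.

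Genes of neighbouring steps also had final peaks, none as high as those of Hrs, ALiX, lap or lsn. The median final signal was 371 for the clathrin and endocytic list, 285 for the endosome maturation list and 336 for the ligase list. It was 276 for the other ESCRT genes, beside 258 at Stam. Over all protein-coding genes, 25.1% had a final promoter peak, with a median signal of 310, so the list medians lie on both sides of it. Of 24 clathrin coat and endocytic genes, 10 had one (41.7%), led by the clathrin light chain gene Clc (1619), the F-BAR protein gene nwk (1481) and the cell fate determinant gene numb (635). Of 24 endosome maturation genes, 13 had one (54.2%), led by the recycling GTPase gene Rab11 (1453), Vps33B (1037) and the Rab7 activator gene Mon1 (733). Of 7 ubiquitin ligase and cargo genes, 3 had one (42.9%), the Notch-pathway ligase genes neur (535) and mib1 (336) and the arrestin gene krz (161). The value of krz rests mostly on replicate 1, with 138 at rank 3172 against 29.9 at rank 18985 in replicate 2. Of the genes named here, nwk, Vps33B, Mon1 and krz each shared the summit with another protein-coding gene. The nwk summit lay 453 bp upstream of the nwk TSS. Of the 69 genes of these 4 lists lsn had the highest signal, and 2, lsn and Clc, reached the signal of the peak of rank 200 (1610). The share of all protein-coding genes that reach this signal is not given here. ACGTAA lay in the windows of 2 of the 33 list genes with a final peak (6.06%), lsn and nwk, beside 11.0% of all final promoter windows, and the difference was not tested.

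**Figure D4:**
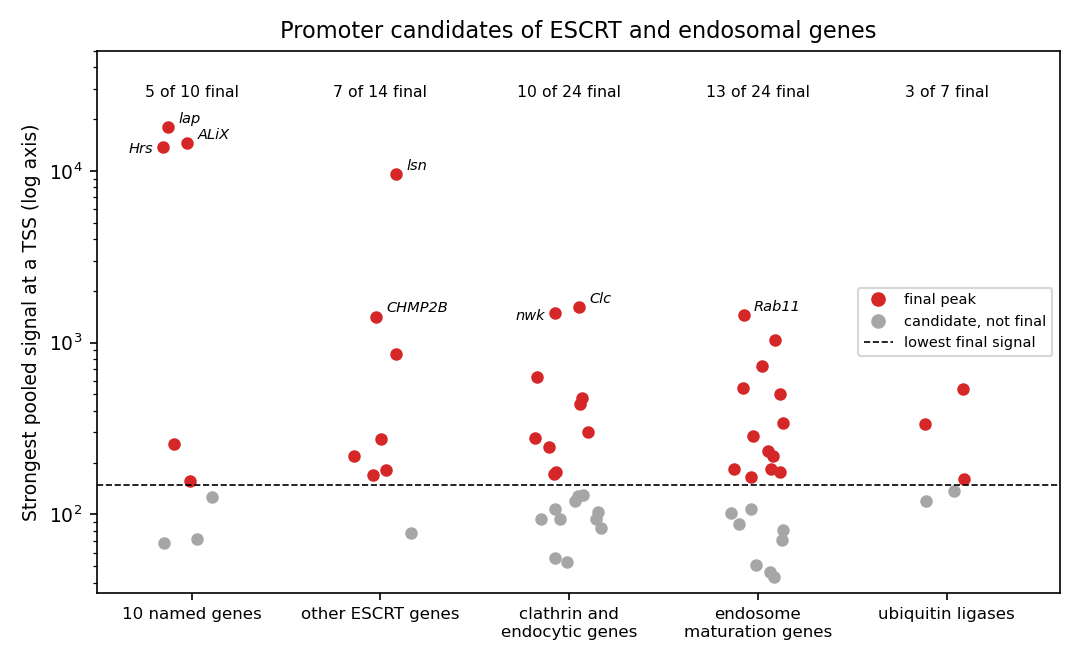
Strongest pooled signal at a TSS (y axis, log scale) for the 10 genes and for the 4 lists of other genes, with final peaks in red and other candidates in grey. Genes with no candidate are not drawn; Hrs, ALiX, lap and lsn stand at or above 9521 and every other gene lies at or below 1619.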

How the data were processed

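The authors deposited a final list of 6091 peaks kept by irreproducible discovery rate, and 30000 candidate regions each for the pooled replicates, replicate 1 and replicate 2, in dm6, per the file descriptions deposited with the samples. Each candidate list derives from the replicate alignments and 1 control alignment. The sources used here name neither the peak caller nor the number of reads, and depth is therefore unknown. The signal column, the authors' peak value, orders peaks inside 1 list and carries no common scale. In the deposited −log10 q column 97.0% of final peaks share the highest value, 4.07, so it was left out.

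Summits were placed on the TSSs of Ensembl release 115, transposable elements left out, with a window of 500 bp. Each gene took the strongest summit at any of its TSSs. Replicate summits matched within 100 bp. Sequence came from the RefSeq genome of the same assembly. The work used scipy 1.17.1, pandas 2.3.3 and numpy 2.4.6 under Python 3.11.15, with plots from matplotlib 3.10.9, and the assignment of summits to TSSs was checked on simulated peaks. The lists of neighbouring genes were matched by symbol or synonym, and Vps37A and Snx9 were not matched. Genes named were the 10, those sharing their summits, the 3 strongest of each list, the peaks next in signal to Hrs, ALiX and lap, and the promoter peaks of rank 15 and 16. The 10 genes, the lists and the words were chosen with earlier results of these data known. The grouping by complex, and Vps36, Vps2, Vps24, Vps60, Vta1, slv, Gle1, CG6847, Tcs5 and Reps, were added after the values were seen. With 1 group, no test was made. Intervals cover counting over peaks, which are not independent replicates.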

Additional observations from a re-analysis of the deposited data

How the results depend on the processing

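The number of the 10 genes with a final promoter peak was 5, and it was 4 with a window of 250 bp, which leaves out mop, and again 5 with 1000 bp. It fell to 3 with the nearest TSS only and to 3 with the more intense peaks of the final list only (those above its median), which leaves out Stam and mop. Stam missed that limit narrowly, with 257.6 against a median of 257.8. In place of the final list, the 6091 strongest candidates of 1 replicate gave the same 5 genes without replicate 1 and without replicate 2. The share over protein-coding genes (25.1%) was 19.9% with 250 bp, 28.5% with 1000 bp, 19.1% with the nearest TSS only and 15.4% with the peaks above the median. ACGTAA was at 3 of the 8 summits, and at 1 with 25 bp to each side, where its share over final promoter windows was 5.78%; with 100 bp that share was 17.1%. Summits in both replicates were found for 7 genes, 5 when they had to lie within 50 bp and 8 within 200 bp. For scale, 5603 of all 6091 final peaks were matched in both replicates within 100 bp. The share over all promoter candidates is not given here, so the count is not read as particular to these genes. Of 21 signals of single genes under another window or the nearest TSS, 20 did not change and that of Stam became 52.2 with the nearest TSS only. A further 9 had no value: Vps28 and Vps25 in every setting, shrb and ALiX with the nearest TSS only, and mop with 250 bp. Without read numbers, the lack of a candidate at Vps28 and Vps25 cannot be told apart from too little depth. Each candidate list also holds 30000 regions, so a region below the weakest one listed (38.0 in the pooled list) would be absent. No paired analysis was possible because there is 1 group.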
